A study of Mus musculus with 8 samples.

Results

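The genes described here are 34 members of the p53 pathway, chosen by symbol: the transcription factor p53 (Trp53) and its relatives, the proteins that hold p53 in check, and direct targets of p53 outside the BCL2 and death receptor families. All 34 were found among the 20976 genes of the deposited table. RNA came from muscle stem cells in culture, the satellite cells of skeletal muscle that express Pax7, purified on a cell sorter from mice with both Chd4 alleles flanked by loxP sites (Chd4LoxP/LoxP), expanded briefly in medium with bFGF and infected with adenovirus. The Cre group (4 libraries) received adenovirus with Cre recombinase, which deletes exons 12 to 21 of Chd4, the gene for a chromatin remodelling ATPase within the NuRD complex. The GFP group (4 libraries) received adenovirus with GFP and kept its loxP-flanked Chd4. Both groups therefore carry virus, and no library combines Cre with a Chd4 gene that lacks loxP sites, so effects of Cre itself and of Chd4 loss cannot be told apart. The design text gives 4 mice per condition, and the labels state no age of the mice.

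p53 is a stress-activated transcription factor whose protein is kept low by Mdm2, a ubiquitin ligase, and by Mdm4, which masks its activating domain. When damage or other stress releases p53 from them, it binds DNA as a tetramer and raises genes of growth arrest, repair, metabolism and cell death, and also Mdm2 itself, which closes a feedback loop. The activity of p53 is set mainly by the amount and modification of the protein, which RNA does not measure. In muscle stem cells p53 is known for its part in the choice between quiescence, division, differentiation and death.

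The library totals after the scaling of the authors lay between 28402534 and 28876348 in Cre and between 27897860 and 28485789 in GFP. The sequencing depth estimated from the spacing of low values was 26.3 to 30.4 M reads in Cre and 23.2 to 38.0 M reads in GFP. Chd4 had 3686, 5480, 5010 and 5134 in Cre libraries 1 to 4, against 17886, 15904, 16634 and 20121 in GFP libraries 1 to 4, so no library went against its label. Libraries with the same number departed from the mean of their group in a similar way (r = 0.820 to 0.908 over all genes tested, against -0.597 to 0.477 for other numbers). They were compared as pairs by number, although the labels do not say that a number marks a shared mouse.

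Markers of the sorted cells and of other cell types did not all stay level. Changes are log2 fold changes of Cre over GFP from a model with the pairs, with p adjusted over all genes tested. At an adjusted p under 0.05 this model called 22.2% of all genes tested higher and 21.7% lower. The marker counts are to be read against these shares. Of 9 satellite cell markers tested, 2 rose, 4 fell and 3 did not pass, and the unpaired model called 0 of them. Cd34 changed by -1.23 ± 0.11 (SE, adjusted p = 2.45e-05), Myf5 by -0.57 ± 0.07 (SE, adjusted p = 0.000124) and Vcam1 by -0.30 ± 0.06 (SE, adjusted p = 0.0019). For Cd34 every Cre library was below every GFP library, but barely, with 462 reads in Cre 2 and 463 in GFP 4. Pax7, the defining marker, had a mean of 5432 ± 870.0 reads in Cre and 5966.5 ± 650.9 in GFP, and Myod1 of 41055 ± 7870.5 in Cre and 35525 ± 4258.2 in GFP (SD, 4 libraries per group). In the model with the pairs both passed: Pax7 changed by -0.14 ± 0.05 (SE, adjusted p = 0.0354) and Myod1 by 0.20 ± 0.07 (SE, adjusted p = 0.0425). Of the fibroblast markers, 6 of the 8 listed were analysed here, and of 4 tested 2 rose and 1 fell. Their sum, 379.97 to 938.5 per M of the library total in Cre and 468.2 to 1028.4 in GFP, was carried by Col3a1, whereas Col1a1 averaged 249.5 ± 95.6 reads in Cre and 12.5 ± 4.36 in GFP and Ly6a 441 ± 92.1 in Cre and 89.8 ± 38.7 in GFP (SD, 4 libraries per group). Both Col1a1 and Ly6a also passed in the unpaired model (adjusted p = 0.00412 and 0.0164).

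Endothelial markers, 5 of 6 listed, summed to 9.65 to 14.3 per M in Cre and 4.98 to 6.60 in GFP, and 1 of 2 tested rose, Tek, by 1.46 ± 0.14 (SE, adjusted p = 3.28e-05). Blood cell markers, 3 of 8 listed, summed to 4.22 to 16.0 in Cre and 1.83 to 9.76 in GFP, and the 1 tested, Cd68, rose by 1.00 ± 0.15 (SE, adjusted p = 0.000369). Pericyte and smooth muscle markers, 7 of 7 listed, summed to 1972 to 3051 in Cre and 874.9 to 1623 in GFP, and 2 of the 5 tested rose, Rgs5 by 2.08 ± 0.06 (SE, adjusted p = 3.52e-08) and Cspg4 by 0.23 ± 0.07 (SE, adjusted p = 0.0263). The other 3 did not pass. The higher sum was carried by Rgs5, at 36372 ± 12938 reads in Cre and 8646 ± 3475 in GFP. Acta2, the other abundant gene of this list, was level at 29084 ± 8750 in Cre and 29166 ± 9102 in GFP (SD, 4 libraries per group). Interferon-stimulated genes, 12 of 13 listed, summed to 43.7 to 62.5 in Cre and 26.6 to 33.1 in GFP, and 6 of the 8 tested rose, led by Ifit1 at 3.36 ± 0.27 (SE, adjusted p = 1.21e-05). Of markers too low for the test, Cdh5, Cldn5 and Myh11 had at most 9 reads in any library and Dcn at most 22, while Kdr averaged 26.5 reads in Cre and 6.5 in GFP and Cnn1 11 in Cre and 0.5 in GFP.

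In the paired model, 19 of the 33 members tested rose in Cre, 4 fell and 10 did not pass (limma, Benjamini-Hochberg adjusted p under 0.05 over all 12910 genes). The same model called 43.9% of all genes tested, 22.2% higher and 21.7% lower, which is the level to read any count against. The members' share higher was 57.6% and their share lower 12.1%, for a list chosen with earlier results of these data known. Their median log2 fold change was 0.17, beside -0.00081 over all genes tested. The changes were mostly modest: Gdf15 and Perp alone passed 1 log2 unit. Of the other 21 called members, those that rose changed by 0.12 to 0.88 and the 4 that fell by -0.17 to -0.26. With upper-quartile rescaling of the libraries 19 members were higher and 1 was lower, and without replicate 4 the counts were 16 and 1. Without replicate 1, 2 or 3 the count of lower members was 2.

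Without the pairing the spread between libraries of a group was larger than most of these differences. The unpaired model called 1.08% of all genes tested and a single member, Ptp4a3 (adjusted p = 0.00906). The unpaired adjusted p of the other 22 members called in the paired model lay between 0.0591 for Perp and 0.849 for Plk2. The unpaired model had 8 members higher, beside 7.41% of all genes, and 1 lower, beside 9.30%, when p was left unadjusted with the limit of 0.05 (16.7% of all genes in either direction). Every Cre library lay above every GFP library for 6 of the 33 members tested, Gdf15, Perp, Trp53inp1, Ptp4a3, Btg2 and Trp53inp2, and also for the untested Trp73, and 0 members lay wholly below. Over all genes tested 4.41% lay wholly above and 6.17% wholly below. In 4 of 4 pairs, 18 of the 33 members were higher in Cre and 4 were lower. Of all genes tested, 27.9% were higher and 27.6% lower in 4 of 4 pairs, so this is common among genes at large. The words rose and fell below refer to the paired model, and adjusted p-values are those of the paired model unless named otherwise.

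**Figure D1:**
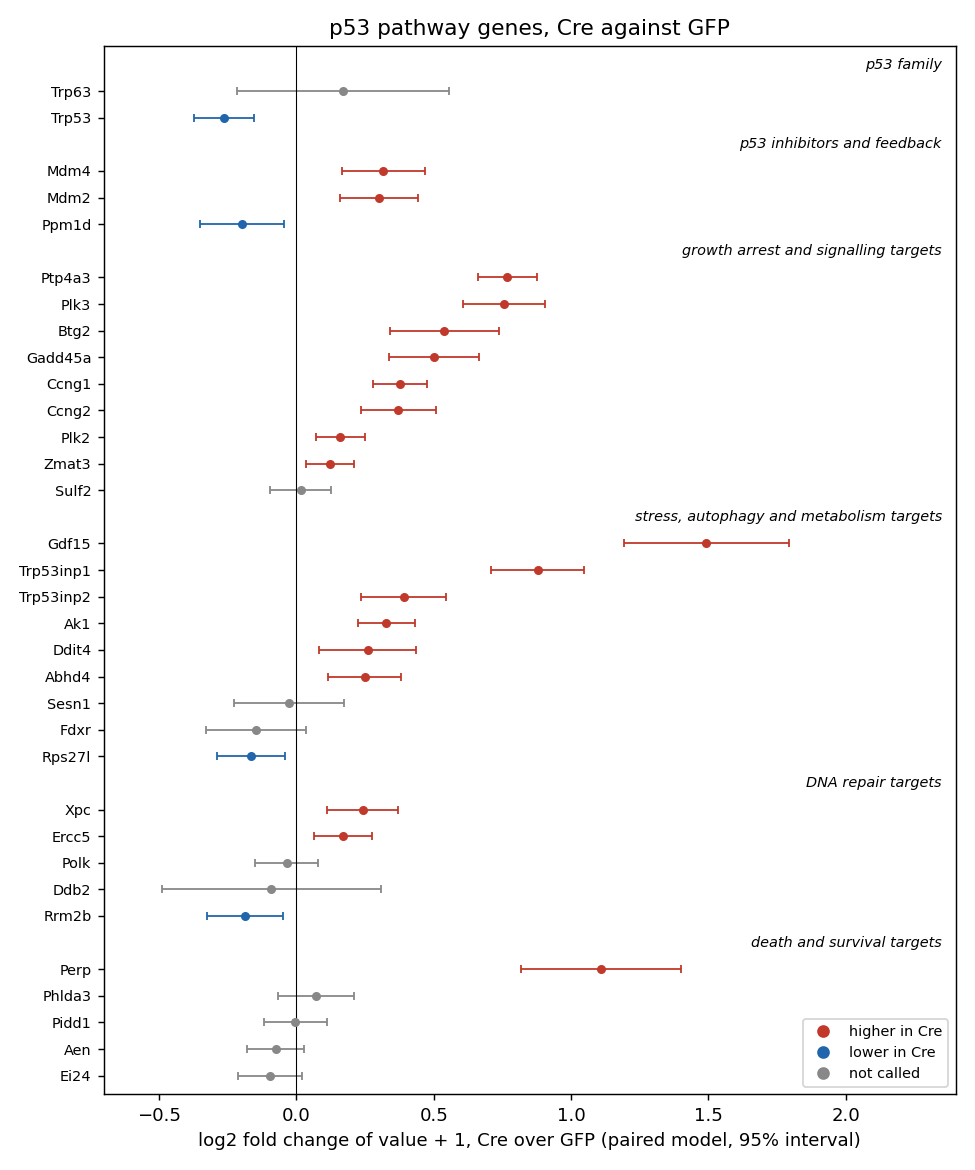
Log2 fold change of each tested member on the horizontal axis, Cre over GFP on log2(value + 1), with the 95% interval of the paired model (n = 4 pairs), arranged by role. Gdf15 and Perp lie farthest to the right at 1.49 and 1.11, and Trp53 farthest to the left at -0.26.

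Within the p53 family, the gene for p53 itself was lower in Cre while its relatives were scarce. Trp53 (ENSMUSG00000059552; chromosome 11, 69580359 to 69591873, plus strand, GRCm38) had 3277, 3213, 3304 and 3940 in Cre libraries 1 to 4, against 4026, 3580, 4366 and 4518 in GFP libraries 1 to 4 library-scaled reads. Each Cre library was below its same-numbered GFP library, and Cre 4 reached into the range of GFP. The log2 fold change of Trp53 was -0.26 ± 0.05 (SE, adjusted p = 0.00162), with means of 3433.5 ± 339.8 in Cre and 4122.5 ± 416.1 in GFP (SD over 4 libraries each). Trp63, which encodes the p63 factor of stratified epithelia, had 19, 101, 91 and 59 in Cre libraries 1 to 4, against 22, 90, 83 and 39 in GFP libraries 1 to 4. Libraries 1 were the lowest in both groups, and the difference of 0.17 ± 0.17 (SE, adjusted p = 0.465) did not pass. Trp73, which encodes the neural and ciliary relative p73, had 3, 3, 4 and 10 in Cre libraries 1 to 4, against 0, 2, 1 and 1 in GFP libraries 1 to 4, too few for the filter of the test. With no filter on low values Trp73 was called higher (log2 fold change 1.55, adjusted p = 0.0349), which made 20 members higher.

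The inhibitors split. Mdm2 (ENSMUSG00000020184; chromosome 10, 117688875 to 117710758, minus strand) had 12259, 8433, 10127 and 11737 in Cre libraries 1 to 4, against 11874, 7066, 7476 and 8500 in GFP libraries 1 to 4. Libraries 1 were nearly level with each other, and the other 3 pairs differed more, by 0.26 to 0.47 on the log2 scale. Mdm2 rose by 0.30 ± 0.06 (SE, adjusted p = 0.00371). Mdm4 had 4168, 3439, 3901 and 5209 in Cre libraries 1 to 4, against 3128, 3211, 2643 and 4562 in GFP libraries 1 to 4. It rose by 0.32 ± 0.07 (SE, adjusted p = 0.00398), higher in 4 of 4 pairs, with groups that overlapped. Ppm1d, the phosphatase Wip1 that reverses damage signalling to p53, had 584, 632, 606 and 732 in Cre libraries 1 to 4, against 759, 657, 650 and 878 in GFP libraries 1 to 4. It was lower in 4 of 4 pairs, with overlapping groups, and changed by -0.20 ± 0.07 (SE, adjusted p = 0.038). The Ppm1d call was lost without replicate 1 (adjusted p = 0.156), 3 (0.0505) or 4 (0.135), without a filter on low values and with upper-quartile rescaling, with adjusted p-values from 0.0178 to 0.156 over the paired alternatives. Trp53 and its inhibitors Mdm2 and Mdm4 thus moved in opposite directions in these libraries, and all 3 kept their calls in each of the 11 paired alternatives.

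**Figure D2:**
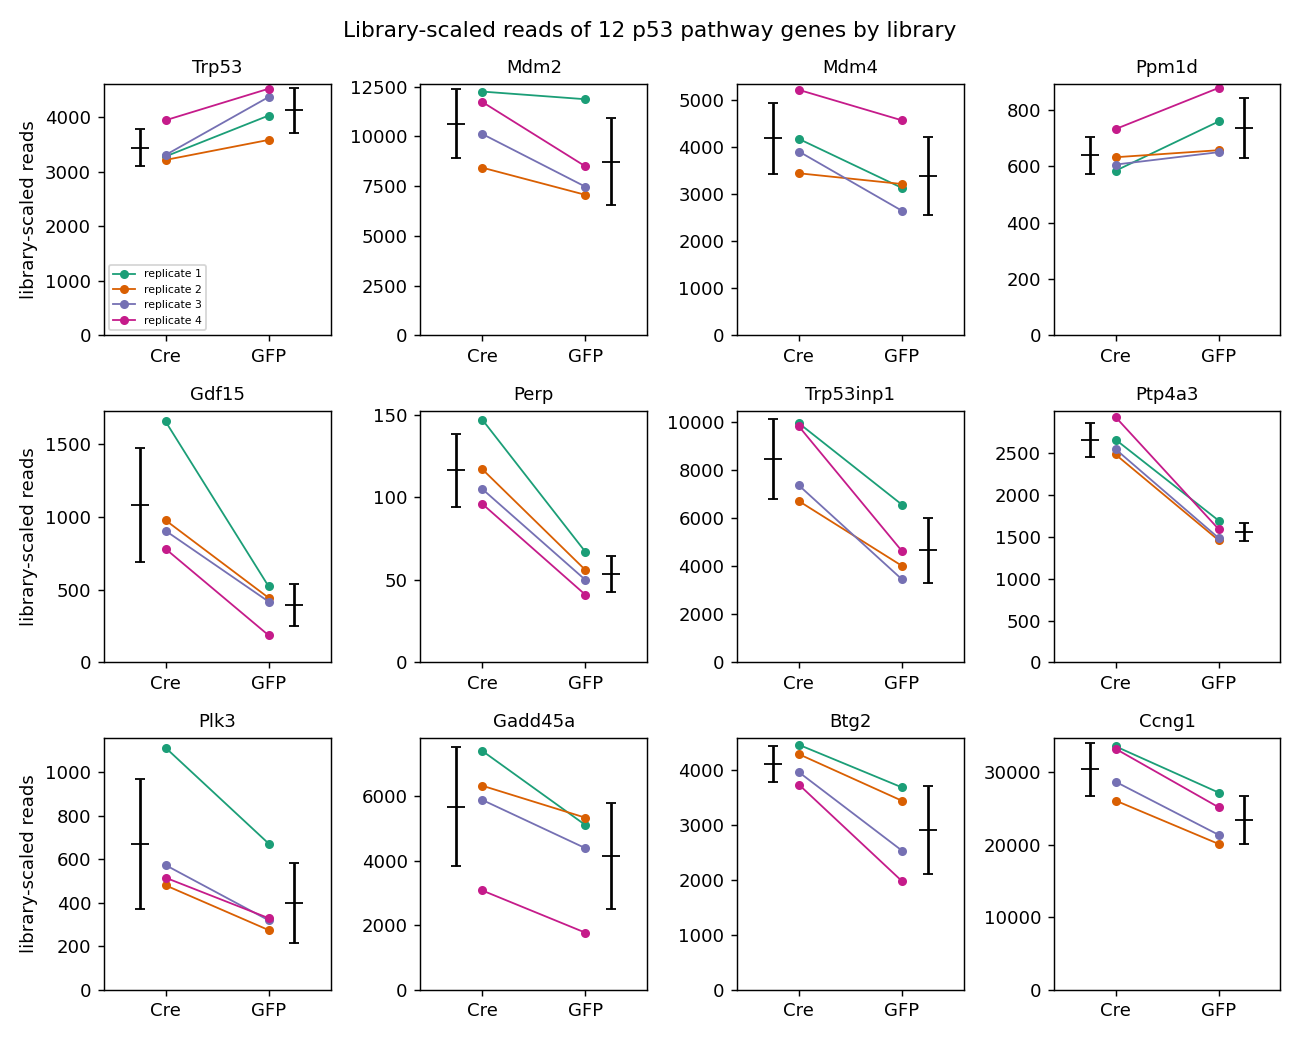
Library-scaled reads (vertical axes from 0) of 12 members in Cre (left) and GFP (right), with a line joining libraries of the same number; black bars are the mean and SD of 4 libraries. Trp53 and Ppm1d are lower in each Cre library than in its GFP partner, and the other 10 genes are higher.

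Of 9 targets linked to growth arrest and signalling, 8 rose, 0 fell and Sulf2 did not pass. The share higher was 88.9%, beside 22.2% of all genes tested, in a list chosen with earlier results of these data known. Ptp4a3 (ENSMUSG00000059895; chromosome 15, 73723145 to 73758766, plus strand), a phosphatase of the PRL family, had 2654, 2477, 2540 and 2923 in Cre libraries 1 to 4, against 1690, 1455, 1482 and 1588 in GFP libraries 1 to 4. The lowest Cre library stood well above the highest GFP library, and replicates of a group lay close together. Ptp4a3 rose by 0.77 ± 0.05 (SE, adjusted p = 3.85e-06), a fold of 1.70 (95% interval 1.58 to 1.84). Plk3, a stress-responsive polo-like kinase, had 1113, 480, 573 and 515 in Cre libraries 1 to 4, against 672, 274, 319 and 329 in GFP libraries 1 to 4. Libraries 1 were far above the rest in both groups, so the groups overlapped although each pair differed by 0.64 to 0.84. Plk3 rose by 0.76 ± 0.07 (SE, adjusted p = 2.27e-05). Its relative Plk2 ranged from 4245 to 8579 in Cre and from 3644 to 7929 in GFP and rose by 0.16 ± 0.04 (SE, adjusted p = 0.00872).

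Btg2, an antiproliferative cofactor of mRNA deadenylation, had 4453, 4282, 3955 and 3729 in Cre libraries 1 to 4, against 3678, 3435, 2528 and 1973 in GFP libraries 1 to 4. Each Cre library was above every GFP library, and the pair differences ranged from 0.28 in pair 1 to 0.92 in pair 4. Btg2 rose by 0.54 ± 0.09 (SE, adjusted p = 0.000868). Gadd45a, a growth arrest and DNA damage protein, had 7406, 6326, 5885 and 3077 in Cre libraries 1 to 4, against 5107, 5334, 4389 and 1768 in GFP libraries 1 to 4. Libraries 4 were lowest in both groups, and the groups overlapped. Gadd45a rose by 0.50 ± 0.07 (SE, adjusted p = 0.000382).

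Ccng1, cyclin G1, which recruits the phosphatase PP2A and aids Mdm2, had 33563, 26081, 28680 and 33224 in Cre libraries 1 to 4, against 27184, 20098, 21351 and 25157 in GFP libraries 1 to 4. It was higher in 4 of 4 pairs by similar amounts, 0.30 to 0.43, and rose by 0.38 ± 0.04 (SE, adjusted p = 9.83e-05), while the groups overlapped. Ccng2, cyclin G2, a target of FoxO factors as well, had 2606, 2006, 1864 and 2194 in Cre libraries 1 to 4, against 2260, 1675, 1334 and 1512 in GFP libraries 1 to 4. The 4 pairs differed by 0.21 to 0.54, with overlapping groups, and Ccng2 rose by 0.37 ± 0.06 (SE, adjusted p = 0.0008). Zmat3, an RNA-binding zinc finger protein, ranged from 5159 to 6944 in Cre and from 4825 to 6275 in GFP and rose by 0.12 ± 0.04 (SE, adjusted p = 0.0285). Its call was lost without replicate 2 (adjusted p = 0.0796), 3 (0.0722) or 4 (0.0921), with total rescaling and with voom, within a range of 0.01 to 0.0921 over the paired alternatives. Sulf2, a sulfatase that edits heparan sulfate at the cell surface, ranged from 3948 to 7298 in Cre and from 3693 to 6608 in GFP, with a difference of 0.016 (95% interval -0.095 to 0.13, adjusted p = 0.819). Sulf2 overlaps Ncoa3 on the opposite strand, and no source used here says whether counting used strand.

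Targets of stress signalling, autophagy and metabolism held the largest difference among the members. Of these 9 genes, 6 rose (66.7%, beside 22.2% of all genes tested), Rps27l fell and 2 did not pass. Gdf15 (ENSMUSG00000038508; chromosome 8, 70629393 to 70632456, minus strand), a secreted stress cytokine of the TGF-beta superfamily, had 1652, 975, 903 and 779 in Cre libraries 1 to 4, against 521, 443, 417 and 186 in GFP libraries 1 to 4. The groups did not overlap, and the pair differences ran from 1.11 in pair 3 to 2.06 in pair 4. Gdf15 rose by 1.49 ± 0.14 (SE, adjusted p = 2.45e-05), a fold of 2.82 (95% interval 2.29 to 3.47), and 0.999% of genes tested had a larger absolute change. Gdf15 is also known as a target of the ATF4 stress pathway. Trp53inp1 (ENSMUSG00000028211; chromosome 4, 11156431 to 11174379, plus strand), a stress-induced protein that aids p53 and autophagy, had 9930, 6699, 7351 and 9800 in Cre libraries 1 to 4, against 6550, 4010, 3450 and 4623 in GFP libraries 1 to 4. The lowest Cre value lay just above the highest GFP value, that of GFP 1. Trp53inp1 rose by 0.88 ± 0.08 (SE, adjusted p = 1.91e-05).

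Trp53inp2, its relative that acts in autophagosome formation, had 4814, 5426, 5041 and 5253 in Cre libraries 1 to 4, against 4151, 4259, 4106 and 3219 in GFP libraries 1 to 4. The groups did not overlap, and GFP 4 was the lowest library. Trp53inp2 rose by 0.39 ± 0.07 (SE, adjusted p = 0.00129). Ak1, the cytosolic adenylate kinase that is abundant in muscle, had 10227, 9373, 7476 and 10007 in Cre libraries 1 to 4, against 7991, 7251, 6610 and 7538 in GFP libraries 1 to 4. It was higher in 4 of 4 pairs, with Cre 3 inside the range of GFP, and rose by 0.33 ± 0.05 (SE, adjusted p = 0.000333).

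Ddit4, the mTORC1 inhibitor REDD1, had 1466, 1870, 2033 and 1609 in Cre libraries 1 to 4, against 1473, 1635, 1687 and 1073 in GFP libraries 1 to 4. Libraries 1 were level, the other 3 pairs were higher in Cre, and the groups overlapped. The change was 0.26 ± 0.08 (SE, adjusted p = 0.0223). It was lost without replicate 3 (adjusted p = 0.0847) or 4 (log2 fold change 0.15, adjusted p = 0.103), within a range of 0.00244 to 0.103 over the paired alternatives. Abhd4, a lipid hydrolase, had 6656, 4068, 3257 and 4053 in Cre libraries 1 to 4, against 6112, 3527, 2898 and 2873 in GFP libraries 1 to 4. Libraries 1 stood above all others in both groups, by more than Cre and GFP differed within any pair, and Abhd4 rose by 0.25 ± 0.06 (SE, adjusted p = 0.0069).

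Rps27l, a paralogue of ribosomal protein Rps27, ranged from 1802 to 2341 in Cre and from 2055 to 2535 in GFP. Its change of -0.17 ± 0.06 (SE, adjusted p = 0.034) was lower in 3 of 4 pairs and was lost without replicate 2 (0.125), 3 (0.101) or 4 (0.152), without a filter and with upper-quartile rescaling, within a range of 0.00491 to 0.152 in adjusted p. Reads of paralogues with similar sequence can be split or dropped by counting, so its level is uncertain. Sesn1, a sestrin that restrains mTORC1, ranged from 257 to 447 in Cre and from 308 to 397 in GFP, and its difference of -0.03 ± 0.09 (SE, adjusted p = 0.834) did not pass. Fdxr, the mitochondrial ferredoxin reductase, ranged from 221 to 290 in Cre and from 249 to 318 in GFP. It was below its partner in 4 of 4 pairs, with a log2 fold change of -0.15 (95% interval -0.33 to 0.034), and did not pass (adjusted p = 0.171).

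DNA repair targets were mixed, with 2 of 5 higher, 1 lower and 2 that did not pass. The shares were 40% higher and 20% lower, beside 22.2% and 21.7% of all genes tested. Xpc, which recognises lesions for nucleotide excision repair, had 1195, 1024, 1092 and 957 in Cre libraries 1 to 4, against 993, 968, 870 and 781 in GFP libraries 1 to 4. It was higher in 4 of 4 pairs, with overlapping groups, and rose by 0.24 ± 0.06 (SE, adjusted p = 0.00705). Ercc5, the endonuclease XPG of the same pathway, had 1898, 1616, 1674 and 1895 in Cre libraries 1 to 4, against 1666, 1539, 1477 and 1605 in GFP libraries 1 to 4. It was higher in 4 of 4 pairs, Cre 2 lay inside the range of GFP, and the rise was 0.17 ± 0.05 (SE, adjusted p = 0.0154). The call of Ercc5 was lost without replicate 4 (adjusted p = 0.0748, the highest of a range from 0.00702). Rrm2b, the p53-inducible subunit of ribonucleotide reductase that supplies nucleotides for repair, had 634, 569, 559 and 489 in Cre libraries 1 to 4, against 747, 684, 615 and 529 in GFP libraries 1 to 4. It went the other way in 4 of 4 pairs, with overlapping groups, and fell by 0.19 ± 0.06 on the log2 scale (SE, adjusted p = 0.0312). Its call was lost without replicate 1 (0.0937), 2 (0.128) or 4 (0.0511) and with upper-quartile rescaling, within a range of 0.0180 to 0.128 in adjusted p. Polk, a translesion polymerase, ranged from 1350 to 2015 in Cre and from 1385 to 2070 in GFP and differed by -0.03 ± 0.05 (SE, adjusted p = 0.616). Ddb2, which detects ultraviolet damage, ranged from 53 to 81 in Cre and from 48 to 123 in GFP, with a difference of -0.09 ± 0.18 (SE, adjusted p = 0.713). Acp2, which overlaps Ddb2 on the opposite strand, averaged 1535.5 reads against 67.6 for Ddb2, and no source used here says whether reads of this pair were assigned by strand.

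Among 5 targets tied to cell death and survival, Perp was the single gene that passed. That share higher, 20%, was close to the 22.2% of all genes tested. Perp (ENSMUSG00000019851; chromosome 10, 18845020 to 18857073, plus strand), a membrane protein of desmosomes that promotes p53-dependent death, had 147, 117, 105 and 96 in Cre libraries 1 to 4, against 67, 56, 50 and 41 in GFP libraries 1 to 4. The groups did not overlap, and the 4 pairs differed by nearly the same amount, 1.05 to 1.21. Perp rose by 1.11 ± 0.13 (SE, adjusted p = 0.000108), a fold of 2.16 (95% interval 1.76 to 2.64), from a low level. Phlda3, an inhibitor of Akt, had values from 6742 to 8302 in Cre and from 6339 to 7726 in GFP and a difference of 0.07 ± 0.06 (SE, adjusted p = 0.392). Pair 3 went against the other 3 pairs for Phlda3, and without replicate 3 the gene passed (log2 fold change 0.16, adjusted p = 0.0235, against up to 0.863 in the other alternatives). Pidd1, the scaffold that activates caspase-2, differed by -0.0034 (95% interval -0.12 to 0.11), the nuclease Aen by -0.075 (-0.18 to 0.028) and the endoplasmic reticulum protein Ei24 by -0.098 (-0.21 to 0.019).

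**Figure D3:**
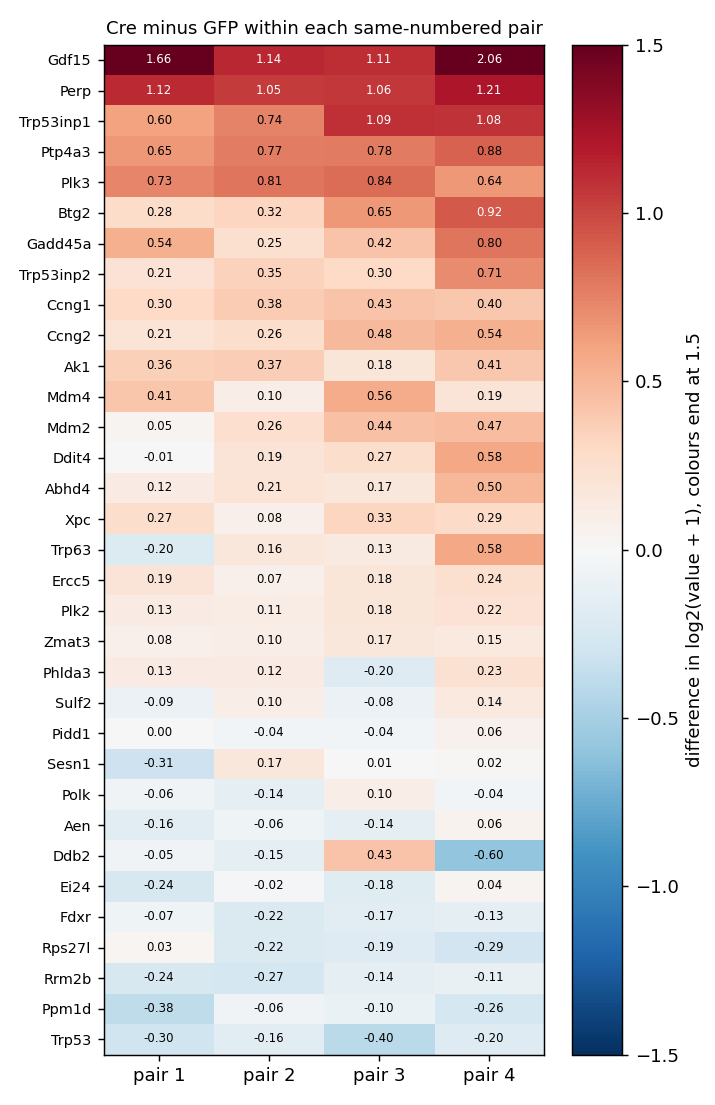
Difference in log2(value + 1), Cre minus GFP, of each tested member (rows, ordered by fold change) in each same-numbered pair (columns). Gdf15 and Perp exceed 1 in each pair, and Trp53, Ppm1d, Rrm2b and Fdxr are below 0 in each pair.

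Differences between replicates were shared by both groups. The library with the highest value had the same number in Cre and GFP for 27 of 33 members, beside 66.8% of all genes tested, and the lowest for 21 of 33, beside 63.3%. Replicate 1 held the highest Cre value for 16 members and the highest GFP value for 14, and replicate 4 held them for 12 and 10. For Gadd45a the highest library exceeded the lowest 2.41 times in Cre and 3.02 times in GFP, more than the fold of 1.42 between Cre and GFP. Plk3 spanned 2.32 times in Cre and 2.45 times in GFP, and Abhd4 2.04 times in Cre and 2.13 times in GFP. By pair, the median difference of the members was 0.12, 0.12, 0.18 and 0.24 in pairs 1 to 4, beside -0.013 to 0.010 over all genes tested. A larger number of members was higher than lower in each pair, from 21 of 33 in pair 1 to 26 of 33 in pair 4.

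On a scale of library-scaled reads per kb of exon and per M of the library total, the members spanned several orders of magnitude. Ccng1 was the most abundant, at 302 ± 36.8 in Cre and 236 ± 31.8 in GFP (SD over 4 libraries each). In GFP it was followed by Phlda3 at 164 ± 13.6, Ak1 at 100.4 ± 7.69 and Rps27l at 98.2 ± 8.99, of which the last 2 did not differ beyond their spread. Mdm2 stood at 73.1 ± 12.1 in Cre and 60.8 ± 14.7 in GFP, above Trp53 at 29.6 ± 2.84 in Cre and 36.1 ± 3.52 in GFP. Mdm4 stood at 9.86 ± 1.75 in Cre and 8.11 ± 1.99 in GFP. The genes with the largest changes were not abundant: Gdf15 had 20.3 ± 7.49 in Cre and 7.49 ± 2.74 in GFP, and Perp 2.08 ± 0.41 in Cre and 0.971 ± 0.19 in GFP. Trp73 was the lowest member, at 0.032 ± 0.021 in Cre and 0.0064 ± 0.0053 in GFP. Together the members held 0.440 to 0.519% of each Cre total and 0.378 to 0.448% of each GFP total.

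**Figure D4:**
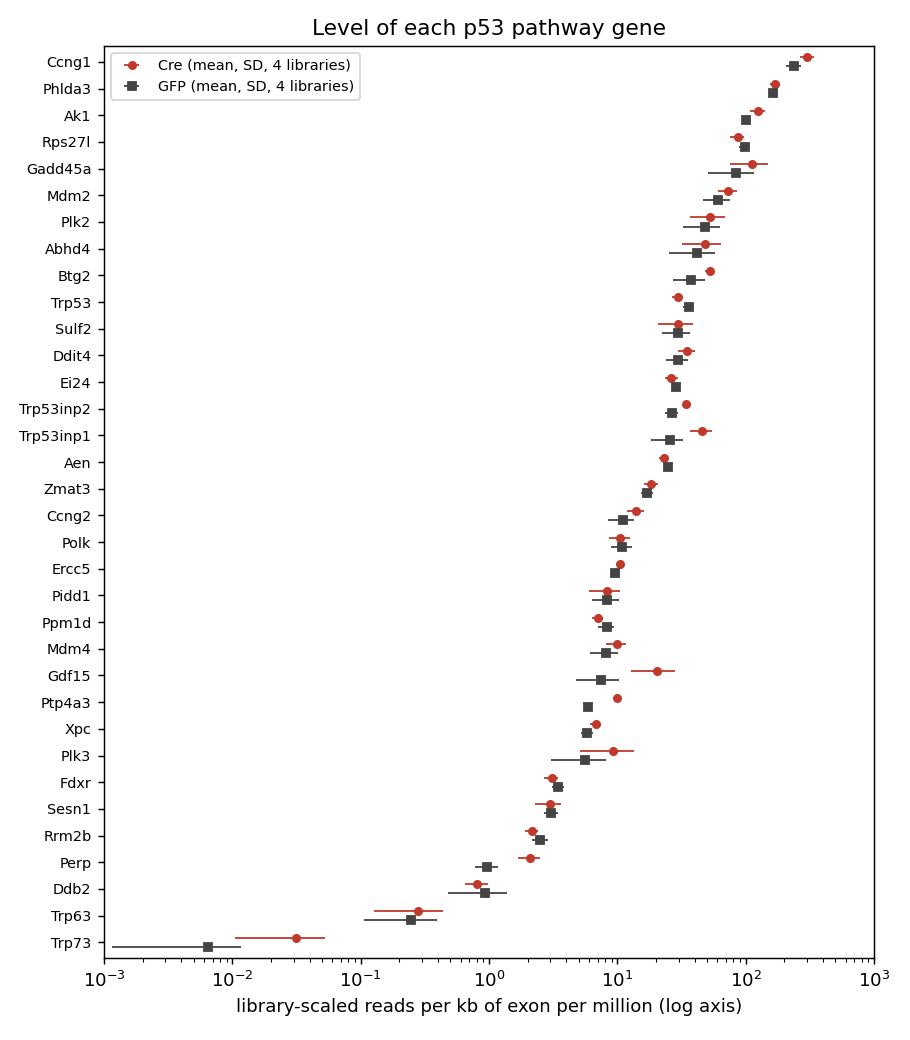
Level of each member in library-scaled reads per kb of exon and per M of the library total on a log axis, as mean and SD of 4 Cre libraries (circles) and 4 GFP libraries (squares), ordered by the GFP mean. Ccng1 is highest at 302 in Cre and 236 in GFP, and Trp73 lowest at 0.032 in Cre and 0.0064 in GFP.

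Other reported p53 targets, listed apart from the members, moved in both directions. Of 53 tested, 22 rose and 12 fell, and 19 did not pass, with a median log2 fold change of 0.11. The share higher was 41.5%, beside 22.2% of all genes tested. The share lower, 22.6%, was close to the 21.7% of all genes tested. The cell cycle inhibitor Cdkn1a (p21) had 27360, 29972, 24048 and 26090 in Cre libraries 1 to 4, against 19387, 22131, 20713 and 17081 in GFP libraries 1 to 4. Every Cre library was above every GFP library, and Cdkn1a rose by 0.44 ± 0.06 (SE, adjusted p = 0.000266), although not in the unpaired model (adjusted p = 0.1005). The 4 largest changes on the list were those of Ephx1, an epoxide hydrolase, at 1.26 ± 0.06 (SE, adjusted p = 1.03e-06), Ndrg1, a stress-responsive gene, at 0.90 ± 0.09 (SE, adjusted p = 3.04e-05), the replication clamp Pcna at -0.68 ± 0.06 (SE, adjusted p = 1.32e-05) and the diacylglycerol kinase gene Dgka at 0.63 ± 0.07 (SE, adjusted p = 0.000106). Ephx1 alone of the 53 also passed in the unpaired model (adjusted p = 0.0393). Of the death genes shared with other families, chosen here after their values were seen, Fas had a change of 0.57 ± 0.17 (SE, adjusted p = 0.0181) and Pmaip1 (Noxa) of 0.38 ± 0.05 (SE, adjusted p = 0.000145), while the apoptosome gene Apaf1 was lower, at -0.14 ± 0.05 (SE, adjusted p = 0.0459). Bax differed by 0.11 ± 0.04 (SE, adjusted p = 0.053), Bbc3 (Puma) by 0.19 ± 0.11 (SE, adjusted p = 0.187), Tnfrsf10b by 0.08 ± 0.05 (SE, adjusted p = 0.222) and Bid by 0.02 ± 0.05 (SE, adjusted p = 0.774), and none of these 4 passed.

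Of 46 kinases, modifiers and cofactors of p53 tested, 6 rose, 12 fell and 28 did not pass, with a median of -0.043. The share called in either direction was 39.1%, beside 43.9% of all genes tested. The share lower was 26.1%, beside 21.7% of all genes tested, and the share higher was below the 22.2% of all genes tested. Without replicate 4 the count of kinases, modifiers and cofactors that rose was 3. Chek1, which signals stalled replication, had 251, 385, 483 and 589 in Cre libraries 1 to 4, against 507, 762, 845 and 1169 in GFP libraries 1 to 4. Each Cre library was below its partner, and the change was -0.95 ± 0.07 (SE, adjusted p = 5.92e-06). Chek2 changed by -0.67 ± 0.07 (SE, adjusted p = 7.97e-05) and Atm, which phosphorylates p53 after double-strand breaks, by -0.54 ± 0.07 (SE, adjusted p = 0.000156). Prkdc, another kinase of the damage response, named after its values were seen, differed by -0.18 ± 0.07 (SE, adjusted p = 0.0555) and did not pass. The transcription elongation inhibitor Hexim1 rose by 0.50 ± 0.05 (SE, adjusted p = 6.72e-05). The unpaired model called 0 of these 46 genes. With unadjusted p it had 2 higher and 10 lower at the same limit of 0.05, beside 7.41% and 9.30% of all genes tested. The paired model with voom called 5 higher and 14 lower.

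Proliferation genes were lower beside these changes. All 22 tested fell in the paired model, beside 21.7% of all genes tested, with a median of -0.74. Their summed level was 1063 to 2511 per M of the library total in Cre and 2148 to 4270 in GFP. The largest decreases were those of Mki67 at -0.998 ± 0.09 (SE, adjusted p = 2.74e-05), Ccna2 at -0.96 ± 0.09 (SE, adjusted p = 3.2e-05), Tyms at -0.96 ± 0.07 (SE, adjusted p = 1.02e-05) and Aurkb at -0.95 ± 0.09 (SE, adjusted p = 3.12e-05). In the unpaired model 0 passed, with 12 lower when p was left unadjusted, and voom with the replicate block called 22 lower. Muscle differentiation markers were higher, with 12 of 12 rising, beside 22.2% of all genes tested, and a median of 0.39. They were led by Tnnt1 at 0.70 ± 0.08 (SE, adjusted p = 7.53e-05). The unpaired model called 0 of these 12, also with p left unadjusted. In bulk RNA, fewer cells of a type and less RNA per cell cannot be told apart. The part of proliferation, differentiation or the cell type markers above in the changes of the members was not tested.

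The promoters of members that changed are shown because p53 targets are defined by binding sites near or within the gene. RefSeq promoter windows on GRCm38.p6, from 250 bases before to 50 bases after each annotated start, matched 26 of the 34 members with 38 windows. A p53 response element is a pair of 10-base units, and the single unit was searched by its consensus, which reads alike on both strands, with no mismatch allowed. It occurred in at least 1 window of 11 of the 26 genes (42.3%), beside 9.55% of 27025 genes with a window, and in 31.6% of member windows beside 8.36% of all windows. A pair of units at most 13 bases apart, the full element, occurred in 0 of the 26 genes, beside 0.074% of all genes. The members were chosen as p53, its relatives, its inhibitors and known p53 targets, so this describes the list. Of members with a window, the unit was held by 4 of 14 that rose, 3 of 3 that fell and 4 of 8 that did not pass. Of the 11 genes, Ccng1, Gadd45a, Mdm2 and Abhd4 rose, Trp53, Ppm1d and Rps27l fell, and Aen, Ei24, Polk and Sesn1 did not pass. Gdf15, Btg2 and Trp53inp2 were among the genes that rose and held no match in these windows. Below are 3 windows of genes that rose and 3 of genes that fell, all taken from windows that hold a match. They run 5′ to 3′ on the strand of the gene, with the matches in capitals.
Mdm2, chr10:117710709-117711008, minus strand: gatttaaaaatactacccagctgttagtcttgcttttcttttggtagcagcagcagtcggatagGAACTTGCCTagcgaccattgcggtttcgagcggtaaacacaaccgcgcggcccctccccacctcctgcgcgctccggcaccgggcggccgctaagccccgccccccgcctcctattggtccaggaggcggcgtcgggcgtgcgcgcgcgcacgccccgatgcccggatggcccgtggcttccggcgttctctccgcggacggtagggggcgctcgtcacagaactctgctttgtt
Ccng1, chr11:40755237-40755536, minus strand: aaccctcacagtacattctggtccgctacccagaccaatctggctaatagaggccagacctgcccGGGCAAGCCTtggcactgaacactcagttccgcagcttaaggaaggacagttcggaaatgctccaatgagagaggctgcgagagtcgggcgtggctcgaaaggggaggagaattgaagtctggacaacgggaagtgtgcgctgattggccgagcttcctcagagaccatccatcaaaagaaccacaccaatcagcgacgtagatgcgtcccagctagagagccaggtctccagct
Gadd45a, chr6:67037358-67037657, minus strand: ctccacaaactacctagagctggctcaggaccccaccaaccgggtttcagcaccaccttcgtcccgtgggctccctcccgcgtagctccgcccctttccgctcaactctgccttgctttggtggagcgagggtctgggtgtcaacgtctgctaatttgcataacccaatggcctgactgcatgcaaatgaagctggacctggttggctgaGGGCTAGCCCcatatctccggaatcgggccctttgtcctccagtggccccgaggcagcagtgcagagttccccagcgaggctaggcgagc
Trp53, chr11:69580109-69580408, plus strand: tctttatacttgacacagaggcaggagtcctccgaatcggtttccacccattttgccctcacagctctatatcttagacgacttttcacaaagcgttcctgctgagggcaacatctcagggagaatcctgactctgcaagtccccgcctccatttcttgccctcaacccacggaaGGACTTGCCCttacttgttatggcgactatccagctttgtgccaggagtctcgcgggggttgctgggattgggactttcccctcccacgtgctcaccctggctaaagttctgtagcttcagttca
Ppm1d, chr11:85311004-85311303, plus strand: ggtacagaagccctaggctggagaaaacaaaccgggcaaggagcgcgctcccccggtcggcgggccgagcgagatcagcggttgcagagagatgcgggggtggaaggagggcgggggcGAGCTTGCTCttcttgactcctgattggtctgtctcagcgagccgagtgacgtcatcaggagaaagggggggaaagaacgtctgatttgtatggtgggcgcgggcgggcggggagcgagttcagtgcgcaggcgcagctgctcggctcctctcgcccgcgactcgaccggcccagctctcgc
Rps27l, chr9:66946163-66946462, plus strand: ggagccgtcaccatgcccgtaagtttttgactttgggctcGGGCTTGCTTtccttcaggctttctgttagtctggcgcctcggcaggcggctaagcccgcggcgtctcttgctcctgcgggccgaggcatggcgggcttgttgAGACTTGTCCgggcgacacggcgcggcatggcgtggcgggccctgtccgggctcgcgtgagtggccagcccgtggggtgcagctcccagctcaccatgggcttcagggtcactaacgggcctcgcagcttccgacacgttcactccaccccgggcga
Counted from the annotated start, the unit begins at position -186 in Mdm2, -185 in Ccng1, -40 in Gadd45a, -75 in Trp53 and -132 in Ppm1d. The Rps27l window shown is that of the downstream of its 2 annotated starts, where the matches begin at -210 and -107, and both lie downstream of the other start, whose window holds no match. A match is a string of letters in the genome of the reference, and no binding was measured here.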

How the data were processed

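RNA of 8 libraries was analysed, 4 with Cre and 4 with GFP adenovirus, as grouped and numbered by their titles. The deposited table holds whole numbers per gene, treated as a score: library totals are nearly equal and low values are missing or doubled at regular steps, as after scaling and rounding by the authors. Per the submitters' processing notes the tools were STAR 2.5.3a, featureCounts 1.5.3 and DESeq, and the builds mm10 and GRCm38. No source used here gives their settings or use of strand.

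Genes with at least 4 libraries at 1 CPM (value per M of the library total) were kept (12910, with 33 of 34 members). limma 3.58.1 in R 4.3.3 was fitted with an intensity trend on log2(value + 1), with group and replicate number, and p-values were two-sided and Benjamini-Hochberg adjusted over all genes tested, with a threshold of 0.05. This scale understates the change of low genes. Equal numbers do not stand for a shared mouse in the labels. The pairing by number followed the rule set for the comparison. The values served as a check on it, and same-numbered libraries correlated at 0.820 to 0.908. Depth was estimated from gaps in values up to 300. The part of counting error in the error of each member was not tested. The fits were tested on simulated data with the pairing built in, which cannot show whether the numbers pair these libraries. Exon lengths came from GENCODE M21 (GRCm38), which held all 34 members, and promoters from RefSeq (GRCm38.p6). Python 3.11.15, numpy 2.4.6, pandas 2.3.3 and matplotlib 3.10.9 were used.

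Per-library values are given for Trp53, Mdm2 and the 20 called members with the largest changes; other lists name up to 4 called genes with the largest changes, Cdkn1a, marker genes that show the range of their list, and genes stated as named after their values were seen. The members and lists were chosen with earlier results of these data known.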

Additional observations from a re-analysis of the deposited data

Results flagged for a closer look

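A single library stood apart from the other 3 of its group, by the share of the group's whole range that separates it from its nearest neighbour, in 4 of the 66 groups of 4 libraries of the members tested. Chance alone flags about 1 in 20 such groups. Cre 4 was the highest Cre library for Trp53, at 3940 reads, with 0.875 of the range below it empty. Library 1 was the highest for Plk3 in both groups, at 1113 reads in Cre (0.853) and 672 reads in GFP (0.862). GFP 4 was the lowest GFP library for Trp53inp2, at 3219 reads (0.853). Trp53, Plk3 and Trp53inp2 kept their calls in the paired model without the replicate concerned.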

How the results depend on the processing

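The pairing decided most calls. With no replicate block, 108 genes were higher and 32 lower in Cre over all genes tested, 1 member was higher and 0 were lower, 1 of the other p53 targets was higher and 0 were lower, and 0 kinases, modifiers and cofactors were called higher or lower. Proliferation genes without the block numbered 0 lower. With no filter on low values 20 members were higher, Trp73 included, and 2 lower. Members lower in Cre numbered 1 with upper-quartile rescaling and 1 to 2 when a replicate pair was left out. Leaving out a pair gave 3 to 6 higher kinases, modifiers and cofactors and a median member change of 0.15 to 0.23; such fits have fewer samples. Of members that passed in no main comparison, direction turned for Sulf2 with total rescaling (-0.0049) and voom (-0.0035), and with upper-quartile rescaling for Sesn1 (0.0091), Polk (0.0013) and Pidd1 (0.033). With a pair left out these ranged from -0.026 to 0.052 for Sulf2, -0.093 to 0.067 for Sesn1, -0.079 to 0.0011 for Polk, -0.026 to 0.0089 for Pidd1 and -0.27 to 0.077 for Ddb2. The cause was not tested. The direction of the 23 called members was kept in all alternatives run. The pseudocounts of 0.5 and 5 changed no member's call, and Trp63 and Ddb2 carry the largest errors at their low values.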
